A study of Homo sapiens with 8 samples.

Results

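The cytosolic ribosomal protein genes encode the proteins of the 40S and 60S ribosomal subunits outside mitochondria. They were taken as the protein-coding genes whose symbol follows the RPL, RPS, RPLP0 to RPLP2 or RPSA naming pattern and whose mean level over the libraries was at least 1 CPM (counts scaled to a common library total). Of 36474 genes with counts, 81 matched the pattern and 80 reached that level; 32 belong to the 40S and 48 to the 60S subunit. The gene left out, RPL39L, a paralog of RPL39, had 1 count in 8 libraries. The members include 3 paralogs of core proteins (RPS27L, RPL3L and RPL10L), and the other 77 encode core proteins.

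RNA came from LNCaP cells, an established human prostate carcinoma line from a metastasis, sequenced as bulk mRNA libraries. All cells were first starved in medium that lacked serum and calcium. They then received 100 ng/mL recombinant human asporin (ASPN), a small secreted matrix protein made by cancer-associated fibroblasts, for 0 h (n = 2), 12 h (n = 3) or 24 h (n = 3). The study asked what ASPN changes in prostate cancer cells, in the setting of HER2/HER3 receptor signaling. The starvation before ASPN was shared by all groups. Since time-matched cells left untreated were not analysed here, the effect of ASPN and that of time in the medium cannot be told apart.

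As background, ribosomal proteins are made in matched amounts and assembled with ribosomal RNA in the nucleolus. Most of their mRNAs begin with a 5′ terminal oligopyrimidine (TOP) tract, a C followed by an unbroken run of C and T. Growth signals that pass through PI3K, AKT and the kinase complex mTORC1 control the translation and stability of TOP mRNAs, in large part through the RNA-binding protein LARP1. Because that control acts mainly on translation, the amount of these mRNAs and the amount of protein made from them can move apart, and the libraries described here measure the former.

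The start regions show what the genes share beyond their names. A tract was counted where a C at the start annotated by RefSeq (GRCh38.p14) was followed by at least 4 bases that were each C or T, on the transcribed strand. The promoter table held 64 of the 80 genes, and 46 of the 64 (71.9%) had a tract at the start, against 5.14% of the 27305 genes in the table. Allowing the tract to begin within 10 bases of the start gave 89.1% of the ribosomal protein genes and 38.4% of all genes. A tract of at least 10 bases within that window was present in 68.8% and 5.55%. In the windows that follow, 50 bases before and 20 bases from the start are shown 5′ to 3′, with the run of C and T nearest the start in capitals. They cover the pair RPS27 and RPS27L, the changed gene RPL22, the paralog RPL10L, and RPLP2 and RPS6, whose tracts from the start are longer than that of RPL22.
RPS27 (chr1:153990712-153990781, plus strand): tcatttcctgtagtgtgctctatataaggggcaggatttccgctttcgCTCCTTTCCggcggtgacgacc
RPS27L (chr15:63157458-63157527, minus strand): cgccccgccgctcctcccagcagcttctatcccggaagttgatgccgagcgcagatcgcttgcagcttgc
RPL22 (chr1:6199576-6199645, minus strand): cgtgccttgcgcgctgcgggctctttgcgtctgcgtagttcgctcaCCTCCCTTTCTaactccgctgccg
RPLP2 (chr11:809917-809986, plus strand): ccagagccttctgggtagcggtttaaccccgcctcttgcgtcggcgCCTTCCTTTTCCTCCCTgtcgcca
RPS6 (chr9:19380217-19380286, minus strand): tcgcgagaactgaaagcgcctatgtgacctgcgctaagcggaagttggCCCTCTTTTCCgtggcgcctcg
RPL10L (chr14:46651762-46651831, minus strand): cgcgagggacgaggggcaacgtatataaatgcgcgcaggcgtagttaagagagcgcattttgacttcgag
RPS27 and RPL22 each had a tract of 7 bases counted from the start, RPS6 of 9 and RPLP2 of 13. The paralogs RPS27L and RPL10L had none at the start or within 10 bases of it.

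Libraries held 73406825 to 96962135 counts, and mitochondrial genes took 6.20% to 7.32% of them. All 8 LNCaP markers fixed for the check, among them KLK3 and HOXB13, were present at mean levels from 164 to 1826 CPM. Their summed level ran from 4683 to 4796 CPM at 0 h, 5231 to 5275 at 12 h and 5226 to 5413 at 24 h, so that the later groups lay above 0 h; what part this has in any result was not tested. All 4 leukocyte markers lay below 1 CPM, with the highest mean at 0.0253 CPM. Of the 5 fibroblast and 3 endothelial markers, 2 and 1 reached 1 CPM, with highest means of 19.6 and 14.0 CPM. Summed fibroblast markers ranged from 21.6 to 22.3 CPM at 0 h, 21.1 to 23.3 at 12 h and 20.8 to 21.3 at 24 h. Summed endothelial markers ranged from 14.8 to 17.3 CPM at 0 h, 13.5 to 15.2 at 12 h and 11.2 to 13.3 at 24 h.

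The ribosomal protein genes took a nearly constant part of the RNA at all times. Their share of all gene counts was 8.51% and 8.79% at 0 h, 9.12%, 8.40% and 8.67% at 12 h, and 8.76%, 8.78% and 8.74% at 24 h. The group means were 8.65% ± 0.20 (SD, n = 2), 8.73% ± 0.36 (SD, n = 3) and 8.76% ± 0.021 (SD, n = 3), so the means differed by less than the spread within 12 h. The 24 h libraries lay inside the range of both other groups. The 60S genes held 5.43%, 5.48% and 5.50% of counts and the 40S genes 3.22%, 3.25% and 3.25% on average at 0, 12 and 24 h. In bulk samples, fewer cells and less RNA per cell cannot be told apart, and a share does not show the amount of RNA per cell.

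The spread between libraries was shared across the family. At 12 h, 59 of the 80 genes in replicate 1 lay above their own mean over the 8 libraries, against 6 in replicate 2 and 19 in replicate 3. At 0 h the counts were 26 in replicate 1 and 63 in the library without a replicate number. At 24 h they were 37, 62 and 40. The median log2 deviation of the family ran from -0.056 in 12 h replicate 2 to 0.041 in 12 h replicate 1, and its SD within groups was 0.035. Over the same libraries the median deviation of 77 mitochondrial ribosomal protein genes stayed between -0.027 and 0.0085, and that of 1354 other genes with at most 600 coding bases between -0.016 and 0.018. The median SD of a member within its group was 1.39% of its mean at 24 h, 2.16% at 0 h and 4.28% at 12 h. What moved the family in single libraries was not tested.

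**Figure D1:**
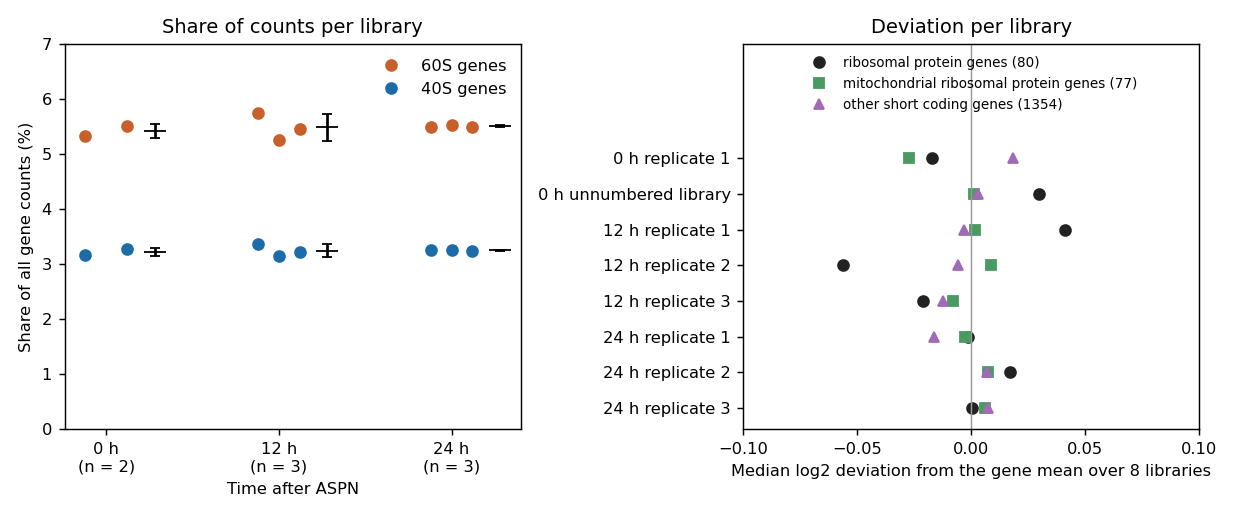
Left, share of all gene counts (%) in 60S and 40S ribosomal protein genes in each library, with mean ± SD beside the points. Right, median log2 deviation from the gene mean over 8 libraries for 80 ribosomal protein genes, 77 mitochondrial ribosomal protein genes and 1354 other short coding genes; the ribosomal protein genes reach -0.056 and 0.041 in 2 of the 12 h libraries and lie near 0 at 24 h.

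After 12 h of ASPN, the ribosomal protein genes were mostly at their 0 h level. Of the 80, 3 passed the test, an adjusted p of at most 0.05 over all genes, and all 3 were lower: RPS27L, RPL22 and RPS15A. Over all 21071 genes tested, 11.6% passed, 4.85% higher and 6.75% lower. Without 0 h replicate 1 that share was 2.79%, and RPS27L was the 1 member left. DESeq2, an alternative count model, gave 5 members, adding RPL7 and RPS3A, all lower, where 7.1% of all genes passed by it. DESeq2 was fitted to every gene with a count, without the filter on low counts that edgeR used. Its shares of all genes and those of edgeR therefore rest on different gene sets. No member changed by 1.5-fold or more and passed, while 1.05% of all genes did. The median log2 change of the 80 genes was -0.011, beside -0.00069 for all genes. Of the 80, 74 changed by less than 0.1 on the log2 scale, which held for 35.3% of all genes. The shares over all genes were not matched to the members for level. In the fit limited to genes averaging at least 100 normalized counts, 19.5% of genes and 3 members passed at 12 h. The 95% interval of the change lay within ±0.2, that is within 1.15-fold, for 73 of the 80; the exceptions were RPL10L, RPL22, RPL36A, RPL3L, RPS10, RPS15A and RPS27L. At an unadjusted p under 0.05 there were 5 members, against 23.5% of all genes. In 18 members (22.5%) every 12 h library lay below every 0 h library, against 19.6% of all genes, and in no member did every 12 h library lie above, against 17.3%.

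After 24 h of ASPN, RPS27L alone passed, and it was lower, where 16.3% of all genes passed, 7.82% higher and 8.49% lower. DESeq2 gave 1 member, where 9.45% of its larger gene set passed. Fold changes of at least 1.5 that passed were seen in no member and in 2.45% of all genes. The median log2 change was -0.00060, beside -0.0031 for all genes. The interval lay within ±0.2 for 73 members, the exceptions being RPL10L, RPL14, RPL22, RPL36A, RPL3L, RPS10 and RPS27L. In all, 3 members had an unadjusted p under 0.05, against 27.3% of all genes. Groups did not overlap for 9 members that were higher and 11 that were lower (11.2% and 13.8%), against 21.5% and 21.7% of all genes.

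Between 12 and 24 h, no member passed by edgeR or DESeq2. With edgeR, 2.72% of all genes passed, and 0.18% passed with a change of at least 1.5-fold. With DESeq2, 2.07% of its larger gene set passed. The unadjusted p was under 0.05 for 3 members, RPL23, RPS15A and RPS3A (named after their values were seen), against 13.6% of all genes. The median log2 change was 0.012, beside 0.0035 for all genes, and 52 of the 80 changes were above 0, as were 10754 of all 21071. Without 12 h replicate 2 the median of the family was -0.0089. The interval lay within ±0.2 for 75 members. Every 24 h library lay above every 12 h library in 9 members (11.2%), against 10.3% of all genes, and below in none, against 9.33%. The comparisons with 0 h share the 2 libraries of that group, and 24 h against 12 h shares libraries with each of them.

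**Figure D2:**
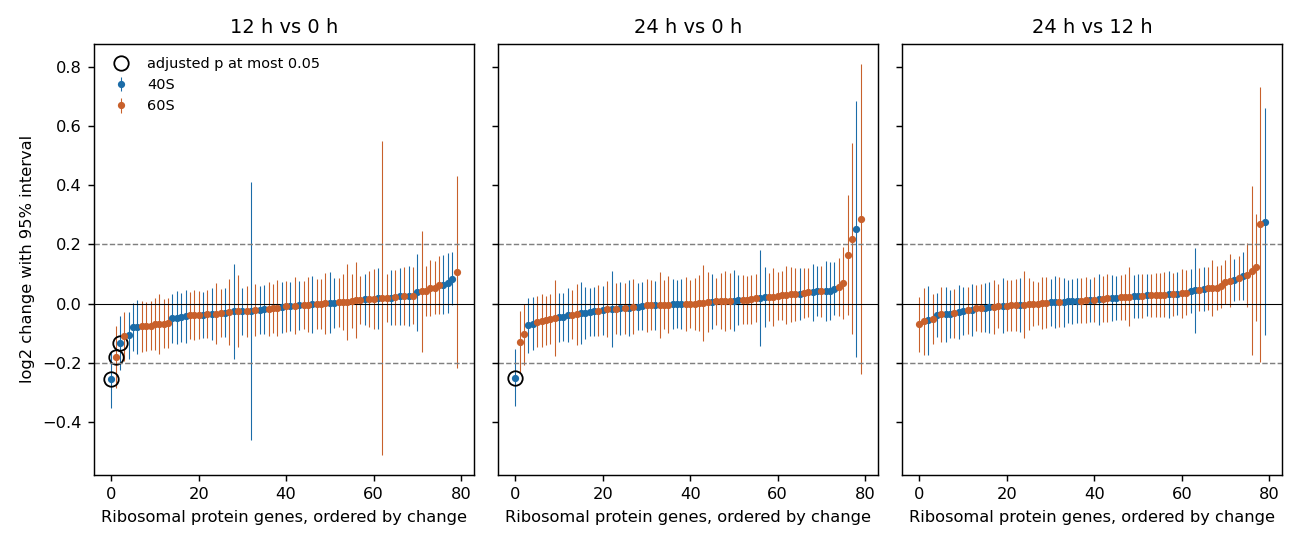
log2 change with its 95% interval for each of the 80 ribosomal protein genes, ordered by change, in the 3 comparisons (blue 40S, orange 60S; dashed lines at ±0.2; rings mark an adjusted p of at most 0.05). Rings mark 3 genes in 12 h vs 0 h, 1 in 24 h vs 0 h and none in 24 h vs 12 h, and the long intervals belong to members with few counts, such as RPL3L and RPS10.

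RPS27L (ENSG00000185088.14, chr15:63125872-63158021), a paralog of the 40S protein RPS27 known as a target of p53, was the member with the largest decrease at both times. Its level was 112 and 111 CPM at 0 h, 94.8, 96.2 and 89.3 at 12 h, and 94.1, 91.8 and 95.3 at 24 h. All 6 libraries with ASPN lay below both 0 h libraries. The mean level fell from 112 ± 1.1 CPM (SD, n = 2) to 93.4 ± 3.6 (SD, n = 3) and 93.7 ± 1.7 (SD, n = 3). The log2 change was -0.26 (SE 0.05, adjusted p = 0.00036) at 12 h, a fold of 0.838, and -0.25 (SE 0.05, adjusted p = 0.00022) at 24 h, a fold of 0.840. Between 12 and 24 h the change was 0.0045 with a 95% interval of -0.08 to 0.09. RPS27L passed in each of the 21 fits run for each comparison with 0 h.

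RPS27 (ENSG00000177954.14), a zinc finger protein of the small subunit and the core partner of RPS27L, stood at 770 and 869 CPM at 0 h, 894, 787 and 807 at 12 h, and 814, 849 and 814 at 24 h. The groups overlapped, and its log2 changes from 0 h were 0.02 (interval -0.09 to 0.12) and 0.01 (interval -0.09 to 0.11). RPS27L made up 12.7% and 11.3% of the counts of the pair at 0 h, 9.58%, 10.9% and 9.97% at 12 h, and 10.4%, 9.77% and 10.48% at 24 h. This share does not depend on normalization between libraries, and it too was lower in all 6 libraries with ASPN. An exact permutation test over 2 against 3 libraries cannot give a two-sided p below 0.2, so the share was not tested. The coding sequences of both genes have 252 bases, of which 196 are identical, and the longest identical run is 20 bases against reads of 150 bases.

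RPL22 (ENSG00000116251.11, chr1:6185020-6209389), a 60S protein that also binds other RNAs, including viral ones, fell at 12 h. Its level was 172 and 158 CPM at 0 h, 135, 154 and 147 at 12 h, and 147, 150 and 155 at 24 h. The ranges of 0 h and the later groups did not overlap, but the gaps were small beside the spread. The log2 change was -0.18 (SE 0.05, adjusted p = 0.0178) at 12 h and -0.13 (SE 0.05, adjusted p = 0.0895) at 24 h. Of 21 fits, 18 kept it past the test at 12 h; without 0 h replicate 1 the change was -0.12 (adjusted p = 0.394), without 12 h replicate 1 it was -0.12 (adjusted p = 0.0894), and with the compared time points fitted alone it was -0.18 (adjusted p = 0.0634). Of its exon bases, 11.2% lie in another gene annotated on the same strand.

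Its paralog RPL22L1 was the more abundant of the pair in counts. RPL22L1 stood at 239 ± 4.4 CPM (SD, n = 2), 235 ± 11.7 (SD, n = 3) and 246 ± 9.96 (SD, n = 3), and its log2 change from 0 h was -0.03 at 12 h (interval -0.13 to 0.07) and 0.04 at 24 h (interval -0.06 to 0.14). RPL22L1 held 58.5% and 59.95% of the pair's counts at 0 h, 62.9%, 61.7% and 60.7% at 12 h, and 61.6%, 63.1% and 61.2% at 24 h. All 6 libraries with ASPN lay above both 0 h libraries. The same held for RPL7L1 in its pair with RPL7, and RPL36AL lay below in all 6 in its pair with RPL36A. For RPL26L1, RPL10L, RPL3L and RPL39L the shares at 0 h and later overlapped. Such shares come from the same counts as the changes of the single genes.

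RPS15A (ENSG00000134419.15), a 40S core protein with a bacterial counterpart, was at 211 and 216 CPM at 0 h, 190, 200 and 194 at 12 h, and 201, 211 and 211 at 24 h. The 12 h libraries lay below the 0 h libraries and the 24 h libraries overlapped with them. The log2 change was -0.13 (SE 0.04, adjusted p = 0.0469) at 12 h and -0.04 (SE 0.04, adjusted p = 0.646) at 24 h. It passed at 12 h in 6 of 21 fits, with adjusted p from 0.0067 to 0.215, and leaving out any 1 library other than 12 h replicate 2 ended the call. Of its exon bases, 9.90% are shared with another gene on the same strand. RPL7, the 60S member with the next largest decrease at 12 h, stood at 1973 ± 34.3 CPM (SD, n = 2), 1827 ± 61.5 (SD, n = 3) and 1896 ± 24.4 (SD, n = 3); its change of -0.11 at 12 h had an adjusted p of 0.0739. The largest increases at 12 h among members with at least 100 normalized counts were 0.11 for RPL36A, 0.08 for RPS15, 0.07 for RPS16 and 0.06 for RPS26, with adjusted p from 0.247 to 0.757.

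**Figure D3:**
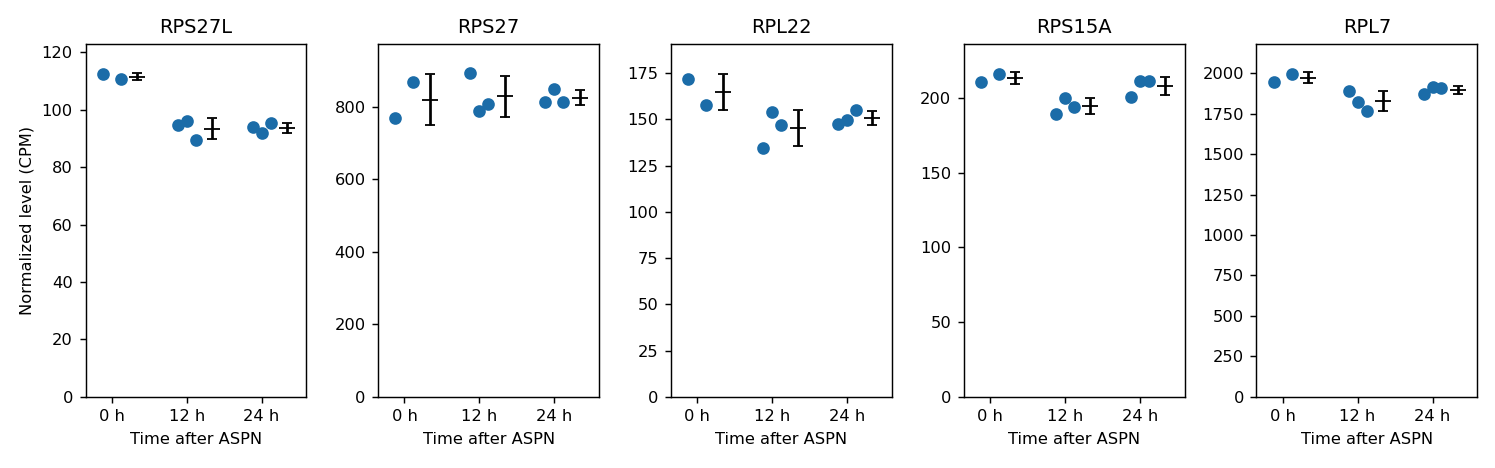
Normalized level (CPM) in each library for RPS27L, its core partner RPS27, RPL22, RPS15A and RPL7, with mean ± SD beside the points; n = 2, 3 and 3. RPS27L lies at 111 and 112 CPM at 0 h and at 96.2 or below in the 6 later libraries, while the RPS27 groups overlap.

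At 24 h the largest decreases after RPS27L and RPL22 were in RPL14 and RPS29, and neither passed. RPL14, a 60S protein without a bacterial counterpart, was at 1327 and 1326 CPM at 0 h, 1294, 1300 and 1292 at 12 h, and 1103, 1290 and 1309 at 24 h. Its log2 change was -0.10 (adjusted p = 0.174) at 24 h, and replicate 1 was the low library. RPS29, a small zinc-binding 40S protein, changed by -0.07 (adjusted p = 0.312). Among members with at least 100 normalized counts, the largest increases at 24 h were 0.25 for RPS10, 0.22 for RPL36A, 0.16 for RPL10L and 0.07 for RPL17, with adjusted p from 0.308 to 0.502. The same 4 genes led the increases from 12 to 24 h, where RPL14, RPLP2, RPS12 and RPL32 had the largest decreases, from -0.07 to -0.05, with adjusted p from 0.539 to 0.734.

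None of the members with defined roles in the ribosome described next passed the test. In the stalk that recruits translation factors, RPLP0 was at 3443 and 3557 CPM at 0 h, 3846, 3325 and 3488 at 12 h, and 3456, 3475 and 3488 at 24 h. Its partners RPLP1 and RPLP2 averaged 1189, 1193 and 1190 CPM and 851, 858 and 822 CPM at 0, 12 and 24 h. The 12 h groups spanned the 0 h groups for all 3 stalk genes. The log2 changes of the 3 stalk genes from 0 h ran from -0.05 to 0.02. RPL5 and RPL11, which carry the 5S ribosomal RNA and bind MDM2 when assembly fails, were close to 0 h. RPL5 was at 993 and 1002 CPM at 0 h, 978, 944 and 933 at 12 h, and 953, 970 and 991 at 24 h, so that its 6 later libraries lay below both 0 h libraries. RPL11 averaged 560, 562 and 564 CPM, and its groups overlapped. The adjusted p of these 2 genes was at least 0.327 in each comparison.

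In the 40S subunit, RPS6, the substrate of S6 kinase, was at 1954 and 1975 CPM at 0 h, 2027, 2032 and 1894 at 12 h, and 2019, 1929 and 2080 at 24 h. Its log2 change was 0.01 (interval -0.07 to 0.10) at 12 h and 0.03 (interval -0.05 to 0.12) at 24 h. RPSA, also known as the laminin receptor, averaged 2013, 2002 and 1950 CPM, and its 24 h libraries lay below both 0 h libraries. RPS27A, made as a fusion with ubiquitin, averaged 447, 447 and 443 CPM. In the 60S subunit, RPL10A averaged 923, 907 and 913 CPM and RPL38 averaged 358, 351 and 357 CPM; both have been studied as proteins that favor translation of certain mRNAs. None of the changes of these genes from 0 h exceeded 0.05 on the log2 scale in either direction.

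The remaining paralogs were near the floor of the family. RPL10L, an intronless copy of RPL10 known from the testis, averaged 7.46 ± 0.51 CPM (SD, n = 2), 7.69 ± 0.29 (SD, n = 3) and 8.36 ± 0.71 (SD, n = 3), beside 1287, 1304 and 1304 CPM for RPL10. RPL10L held 0.543% to 0.682% of the counts of the pair, whose coding sequences share 573 of 642 bases with identical runs of up to 50 bases. RPL3L, a copy of RPL3 known from striated muscle, had 65 to 142 counts per library and mean levels of 0.995, 1.01 and 1.21 CPM, beside 3763, 3774 and 3754 CPM for RPL3. RPL39L had 0 counts in 7 libraries, which allows up to 0.0309 to 0.0409 CPM in a library, beside 441, 418 and 422 CPM for RPL39. With runs of identical bases shorter than a read, reads that span a difference can be assigned, but how reads that match both copies were counted was not stated.

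Medians by subunit, conservation and gene structure lay close together. At 12 h the median log2 change was -0.021 in the 40S and -0.0057 in the 60S genes, and at 24 h -0.0073 and 0.0032. For 33 members with a bacterial counterpart the medians were -0.026 and -0.0035, and for 44 core members without a bacterial counterpart the 12 h median was -0.0066, and at 24 h 22 were higher and 22 lower. The 28 members whose genes hold snoRNA genes, 60 in all, had medians of -0.015 and -0.0064, and none of the 28 passed at either time. Of the 64 members in the promoter table, 57 had a tract within 10 bases of the start. A split by a tract at the start itself thus does not divide genes with a tract from genes without. The 46 members with a tract exactly at the start had medians of -0.0028 and -0.00060. The 18 others, among them RPL4, RPL15 and RPL19 with a tract close by, had -0.023 and 0.0042. Each of these medians is smaller than the SD of 0.035 by which the whole family moved between libraries of a group. Other genes with at most 600 coding bases, compared because ribosomal proteins are short, had medians of -0.016 and -0.015, and 79 and 118 of 1354 passed higher and 160 and 176 lower.

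Levels between members, compared per kb of coding sequence, ran from 0.883 to 13907 CPM per kb, and 72 of the 80 lay between 396 and 13907. By this measure RPL41, with the shortest coding sequence, was highest at 13907 CPM per kb, followed by RPL13A at 7266, RPS18 at 5584 and RPS2 at 5189. Counts cover whole transcripts, so the measure is raised where the coding part is small, and the rank of RPL41 depends on it. RPL41 has 75 coding bases in a transcript of 676, at 1043 CPM. RPL13A has 609 in 1127, at 4425 CPM. For these 72 the median was 2005 CPM per kb, with quartiles of 1581 and 2677. The 8 lowest members were the 3 paralogs, RPL3L at 0.883, RPL10L at 12.3 and RPS27L at 389, and all 5 genes that share at least 40% of their exon bases with another gene annotated on the same strand. Among those 5 were RPS10 at 3.06 CPM per kb, RPL36A at 7.77, RPL17 at 104 and RPL26 at 246.

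The shared bases come from annotated readthrough and overlapping genes. RPS10 shares 84.0% of its exon bases with the readthrough gene RPS10-NUDT3, RPL17 96.9% with RPL17-C18orf32 and RPL36A 43.8% with RPL36A-HNRNPH2. RPL26 shares 65.3% with a gene that carries no symbol. RPS10 was at 1.41 and 1.43 CPM at 0 h, 1.34, 1.23 and 1.61 at 12 h, and 1.46, 1.60 and 2.03 at 24 h, from 103 to 155 counts per library. RPL36A was at 2.35 and 2.17 CPM at 0 h, 2.49, 2.32 and 2.51 at 12 h, and 2.55, 2.63 and 2.74 at 24 h. All 5 genes were higher at 24 h than at 12 h, with log2 changes of up to 0.28, and none of these changes passed the test. How the counting assigned reads over shared bases was not tested, and the levels of the 5 genes are those of the deposited rows. On the other strand, overlap reached 59.0% of the exon bases of RPL38, 53.7% of RPL10 and 51.4% of RPL30 (named for their annotation), whose levels were in the range of the family.

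Pseudogenes named after the members took a small share of the family's counts, and those of RPS2 held the most, 393841. The 660 pseudogene rows, from 75 parent genes, held 898374 counts, or 1.53% of the 58869015 counts of the members. In 20 members they exceeded 1% of the gene's own counts. RPS10 had 1019 counts in its own row over the 8 libraries and 12434 in its pseudogene rows, of which 11507 lay in RPS10P7, annotated over chr1:201518703-201584367. For RPL36A the pseudogene rows held 18.3% of the gene's counts, for RPL9 14.2%, for RPS2 12.8% and for RPL41 10.3% (chosen for this share after it was seen). With pseudogene counts added to their parents, the combined row of RPS10 changed by 0.23 at 12 h (adjusted p = 0.0322) and 0.27 at 24 h (adjusted p = 0.0085). Most counts of that row come from RPS10P7, so these values are not a change of RPS10 itself. The gene's own row gave -0.02 and 0.25, and neither passed.

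**Figure D4:**
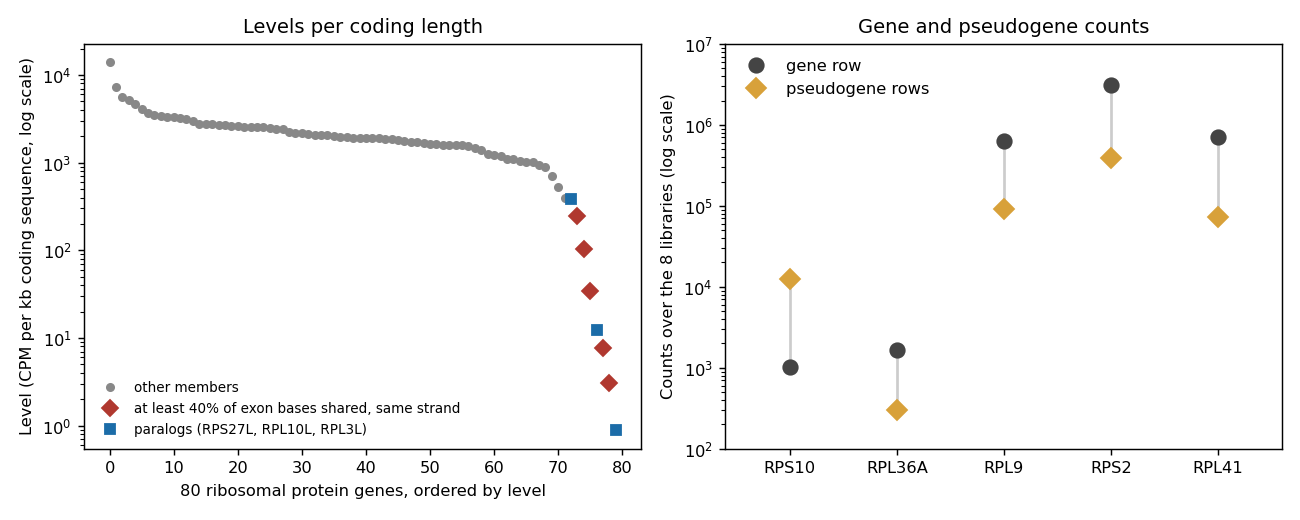
Left, level of the 80 genes in CPM per kb of coding sequence (log axis), ordered from highest to lowest, with the 5 genes that share at least 40% of their exon bases on the same strand and the 3 paralogs marked; these 8 are the lowest. Right, counts over the 8 libraries (log axis) in the gene row and in the pseudogene rows for 5 members; of these, RPS10 alone has more in pseudogene rows, 12434 against 1019.

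Genes of the ribosome outside the naming pattern were also measured. FAU, a ubiquitin-like fusion that yields RPS30, averaged 265, 283 and 267 CPM, and RACK1, a 40S signaling scaffold, 1931, 1926 and 1968. The list, which also holds the paralogs RPL22L1, RPL7L1, RPL26L1 and RPL36AL, has 7 genes, of which none passed in any comparison by edgeR; without 12 h replicate 2, 1 passed at 12 h. Their smallest adjusted p was 0.236 (RPL26L1 at 24 h, change -0.11). RPL36AL, at 226, 218 and 215 CPM, held 98.8% to 99.1% of the counts of the pair with RPL36A.

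Other TOP mRNAs, which encode translation factors and related proteins, mostly did not pass. Of 26 tested, 4 passed lower at 12 h, EIF2S3 at -0.22, EIF3E at -0.16, TPT1 at -0.15 and EIF4B at -0.13, and none higher. At 24 h, EIF2S3, NPM1 and HNRNPA1 passed lower, from -0.15 to -0.12, and TMSB10 passed higher at 0.16. These counts stand beside 6.75% of all genes lower at 12 h, and 8.49% lower and 7.82% higher at 24 h. EEF1A1, the elongation factor that delivers tRNA, was at 13939, 13245 and 13732 CPM, EEF2, which moves the ribosome along, at 8433, 8065 and 8388, and PABPC1, the poly(A)-binding protein, at 3253, 3050 and 3212, with adjusted p of at least 0.123 in each comparison. Without 0 h replicate 1 none of the 26 passed at 12 h and 1 passed at 24 h, and without 24 h replicate 1 none passed at 24 h. The change of TPT1 at 12 h was -0.05 (adjusted p = 0.712) without 0 h replicate 1, and that of EIF2S3 at 24 h was -0.09 (adjusted p = 0.414).

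Among 14 hosts of snoRNAs that are TOP RNAs, most of them noncoding, 4 passed lower at 12 h, where 6.75% of all genes did. These were ZFAS1 at -0.29, SNHG32 at -0.26, SNHG8 at -0.22 and SNHG29 at -0.19. ZFAS1 went from 38.8 and 37.4 CPM at 0 h to 29.6, 32.4 and 31.5 at 12 h and 33.8, 32.8 and 33.9 at 24 h. Its 6 libraries with ASPN lay below both 0 h libraries. At 24 h ZFAS1 and SNHG8 passed lower and SNHG12 higher, and SNHG29 and SNHG32 passed higher than at 12 h. Of all genes, 8.49% passed lower and 7.82% higher at 24 h, and 1.12% passed higher at 24 h than at 12 h. Without 24 h replicate 1 none of the 14 passed at 24 h, and ZFAS1 passed in 20 of 20 fits at 12 h and 14 of 20 at 24 h. GAS5, a classic TOP host gene, averaged 206, 206 and 215 CPM and did not pass. Of the exon bases of ZFAS1 and SNHG8, 61.4% and 40.3% overlap a gene on the other strand, and 39.7% of those of SNHG32 another gene on the same strand.

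Among regulators of TOP mRNAs, the mTORC1 inhibitor SESN2 was lower at both times and DDIT4 at 24 h. Of 30 genes of mTORC1 and LARP1, 1 passed higher and 5 lower at 12 h, and 6 passed lower at 24 h, where 4.85% of all genes passed higher and 6.75% lower at 12 h and 8.49% lower at 24 h. From 12 to 24 h, 1 of the 30 passed higher and 3 lower, where 1.12% of all genes passed higher and 1.61% lower. SESN2, a stress-induced inhibitor of mTORC1, was at 138 and 134 CPM at 0 h, 102, 89.7 and 101 at 12 h, and 78.5, 83.9 and 80.5 at 24 h. The groups did not overlap, and its log2 change was -0.48 (SE 0.05, adjusted p = 1.3e-07) at 12 h and -0.75 (SE 0.05, adjusted p = 4.2e-12) at 24 h. DDIT4, another inhibitor of mTORC1, was at 1289, 1307 and 1051 CPM and passed lower at 24 h at -0.29. LARP1B, the paralog of LARP1, changed by -0.25 and -0.48, and PDCD4, an inhibitor of the helicase of translation initiation, by -0.29 and -0.18; both passed at each time. Without 0 h replicate 1 the calls of LARP1B at 12 h and PDCD4 at 24 h were lost, and 2 of the 30 genes passed at 12 h and 4 at 24 h. LARP1 itself averaged 534, 557 and 554 CPM and did not pass in any comparison.

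Of 33 translation initiation factors, 1 passed higher and 6 lower at each time from 0 h, and none between 12 and 24 h. This list shares genes with that of the other TOP mRNAs, such as EIF2S3, so their counts are not separate. Of all genes, 4.85% passed higher and 6.75% lower at 12 h, and 7.82% and 8.49% at 24 h. Without 0 h replicate 1, 1 of the 33 passed at 12 h and 3 at 24 h. EIF1, which guards start codon choice, was at 1149 and 1137 CPM at 0 h, 984, 913 and 959 at 12 h, and 886, 918 and 902 at 24 h, with log2 changes of -0.26 and -0.34 that passed in 21 of 21 fits each. EIF2S2 and EIF2S3, subunits of the factor that brings the initiator tRNA, changed by -0.20 and -0.22 at 12 h and by -0.24 and -0.15 at 24 h. Of 27 chaperones and assembly factors of ribosomal proteins, 1 passed higher and 3 lower at 12 h, and 3 higher and 2 lower at 24 h; RSL24D1, a placeholder in 60S assembly, changed by -0.27 and -0.19, the kinase RIOK3 by -0.24 and -0.31, and the 40S assembly factor RRP7A by 0.20 and 0.21. Without 0 h replicate 1, none of the 27 passed at 12 h and 1 at 24 h.

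Of 77 mitochondrial ribosomal protein genes, 4 passed higher and 3 lower at 12 h, and 6 higher and 4 lower at 24 h, where 11.6% and 16.3% of all genes passed in either direction; without 0 h replicate 1, 1 passed at 12 h and 4 at 24 h. These proteins serve the separate ribosome inside mitochondria. MRPL12 rose from 23.5 and 25.6 CPM at 0 h to 32.5, 29.8 and 32.0 at 12 h and 32.5, 29.7 and 30.3 at 24 h, a log2 change of 0.36 (adjusted p = 0.00029) and 0.33 (adjusted p = 0.00040). MRPS35 changed by -0.21 at both times, and MRPS18B by -0.09 at 12 h (adjusted p = 0.261) and -0.21 at 24 h (adjusted p = 0.0015).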

How the data were processed

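The deposited values were raw read counts per gene, without normalization. The authors trimmed reads with Cutadapt, aligned them to GRCh38.p13 with STAR and counted them per GENCODE gene with featureCounts. Strand, read-pair and multi-mapping options were not stated, and a time-0 replicate was left out by the authors for quality. One time-0 column carries a number that no time-0 label has and was used as a 0 h library with no number. Every sample column of the table was used.

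The main test was the quasi-likelihood test in edgeR 4.0.16 under R 4.3.3 (TMM, filterByExpr, robust, 1 coefficient per time over all 8 libraries) and adjusted by Benjamini-Hochberg over 21071 genes; all 80 members passed the filter. SE and 95% intervals come from that fit. Levels are CPM after TMM scaling. Biological variation between libraries, as a coefficient, came to 5.59%. DESeq2 1.42.0 and other scalings, filters and sample sets served as alternatives. The method was tested on simulated data.

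Coding lengths, exons and overlaps came from GENCODE release 44, whose gene coordinates equaled those of the file for 79 of the 81 matching rows; canonical transcripts of some members carry long 3′ ends, so levels are given per coding kb. Start windows are RefSeq's, matched by symbol. Chi-square statistics per degree of freedom between libraries of a group were 5.61 to 16.8, so each library was counted once. The labels call the samples biological replicates, and the study describes cells plated in triplicate wells. The p-values measure only the spread between these samples. A count of 0 allows 3 counts; such limits cover counting error only. Named members were the 4 with the largest increase and decrease per comparison, among those averaging 100 or more normalized counts, the 4 highest and lowest per coding length, and a set with known roles; outside the family, fixed genes and the 2 with the smallest p per list and comparison, with others of a list named where counts were small. The members and lists were chosen with earlier results of these data known. EEF1G and SLC25A6 were not analysed here, and some genes that enter counts and medians are not reported singly.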

Additional observations from a re-analysis of the deposited data

Results flagged for a closer look

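The results listed here stood out by a difference between times or by signal outside the main rows. The 5 genes outside the family named here changed from 0 h by a different amount at 24 h than at 12 h, by the test of 24 h against 12 h. DDIT4 changed by -0.315 on the log2 scale (adjusted p = 1.9e-05), SESN2 by -0.266 (adjusted p = 0.00091) and LARP1B by -0.229 (adjusted p = 0.0067). SNHG29 changed by 0.137 (adjusted p = 0.0346) and SNHG32 by 0.173 (adjusted p = 0.0372). In the list of mTORC1 and LARP1, 1 further gene passed higher in this comparison and is not reported singly. DDIT4 and SESN2 passed in each of 20 fits, LARP1B in 17 of 20, SNHG29 and SNHG32 in 15 of 19. The LARP1B call was lost without 12 h replicate 3, 24 h replicate 1 or 24 h replicate 3, with adjusted p of up to 0.0625. That of SNHG29 was lost without 12 h replicate 3 or any 1 of the 24 h libraries (adjusted p up to 0.250). That of SNHG32 was lost without 12 h replicate 1 or 2 or 24 h replicate 1 or 2 (adjusted p up to 0.259). Groups of 2 or 3 libraries were too small for a test of single outlying libraries. The pseudogene rows of RPS10, which the main comparisons of the ribosomal protein genes did not use, held 12434 counts over the 8 libraries, more than the 1019 of RPS10 itself.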

How the results depend on the processing

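The number of ribosomal protein genes past the test was 3 at 12 h and 1 at 24 h against 0 h. At 12 h it was 5 with DESeq2, where 7.1% of its larger gene set passed. It was 1 with the compared time points alone (8.28% of all genes) and 8, all lower, with length and GC corrected (11.3%). Over the fits that left out single libraries it was 1 to 4. At 24 h it was 2 with the compared time points alone (19.1%), 2 with pseudogene counts added (16.6%), 5, all lower, with length and GC corrected (18.9%), and 1 to 2 without single libraries. RPL22 joined RPS27L at 24 h without the unnumbered 0 h library (-0.18) and without 12 h replicate 1 (-0.13); at 12 h RPS27L alone passed without 0 h replicate 1, RPS16 passed higher without the unnumbered 0 h library, RPS15 without 12 h replicate 2, and RPL7 passed lower without 12 h replicate 1. Between 12 and 24 h the count was 0 in every fit run. The median change of the family at 12 h was -0.048 with length and GC corrected, from lengths that include long 3′ ends; over the fits without single libraries the medians ran from -0.036 to 0.019 at 12 h, -0.035 to 0.028 at 24 h and -0.0089 to 0.038 between them, so the sign of the family median is not fixed by these data. The value for RPS10 at 12 h changed sign with pseudogene counts added, to 0.23, where most counts of the combined row come from pseudogenes. Among the counts of protein-coding genes the share of the family was 9.02%, 9.10% and 9.15% at 0, 12 and 24 h, among nuclear genes 9.28%, 9.35% and 9.43%, and with pseudogenes 8.89% at 24 h. The cause of these shifts was not tested. Without 12 h replicate 2, 7 other TOP mRNAs passed at 12 h in place of 4, and without the unnumbered 0 h library 12 mitochondrial ribosomal protein genes in place of 7. For single genes and other lists, 4437 values kept their call, 36 gained it, 109 lost it, 73 counts moved and 1 value reversed, where a change of sign in a gene without a call was not counted.

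Against 0 h, numbers were read in 2 ways, since the 0 h columns carry 1 and 3 and the 0 h labels 1 and 2. With the replicate block from the columns, 2 members passed at 12 h (RPL22 and RPS27L) and 1 at 24 h (RPS27L), and the medians were -0.00038 and 0.0097. With the unnumbered library taken as 2, a block chosen after seeing the data, the same counts of 2 and 1 had medians of -0.0036 and 0.0051. RPS15A lost its 12 h call under both (adjusted p = 0.0597 and 0.105). Same-numbered libraries correlated with 0 h at -0.134 to -0.0607 by the columns and -0.134 to 0.00030 by the labels. With 2 libraries at 0 h, the deviations of each mirror those of the other, so these correlations cannot decide whether the numbers mark pairs. The main test used no pairs. Between 12 and 24 h the deviations of same-numbered libraries correlated at 0.0922, 0.0371 and 0.0246 over 13840 genes. The best match of 24 h replicate 3 was 12 h replicate 2 (0.0273), by a small margin. These low correlations do not decide whether the numbers mark pairs, and the fit with pairs is given beside the main one. With the replicate block, 0 members passed, the median was 0.0095, and 4.39% of all genes passed in place of 2.72%. With at least 100 normalized counts in all but 1 member, depth limits mainly RPL3L, RPS10, RPL36A and RPL10L, whose intervals reach beyond ±0.2.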
